A study of Mus musculus with 20 samples.

Results

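The effect of 3 days of high-fat feeding on adipocyte precursor cells was compared between a visceral and a subcutaneous fat depot of female mice. The comparison is a difference of differences: the change from standard diet to high-fat diet in the visceral depot, minus the same change in the subcutaneous depot. It uses 18 of the 20 libraries of the series, namely those numbered 1 to 5 on high-fat diet and 1 to 4 on standard diet in each depot. Number 5 on standard diet was left out in each depot, because that library carries the marker genes of the other depot.

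All mice were C57Bl6/J females aged 8 to 11 weeks. They ate either a standard chow (SD, sampled at day 0) or a high-fat diet labelled 60% lard (HFD, sampled at day 3). VWAT is the perigonadal depot and SWAT the inguinal depot, and each library holds cells pooled from 3 mice. Precursors were sorted without CD45, a leukocyte marker, and without CD31, an endothelial marker. The sorted cells carried CD29, CD34 and Sca1, and were taken irrespective of CD24. The libraries were made from polyadenylated RNA, keep the strand and were read as 75 bp single reads. A library is therefore a pool of animals and of all precursor states within the gate, and nothing in the labels ties a VWAT pool to a SWAT pool of the same number.

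Adipocyte precursors are stromal cells that lie around the vessels of fat and lay down its collagen matrix. When fat must store more energy they can divide and then differentiate into new adipocytes, a process held back by Wnt signalling through beta-catenin. Secreted antagonists such as Frzb (secreted frizzled-related protein 3) bind Wnt ligands outside the cell. Visceral and subcutaneous precursors keep different developmental programs, in which Wt1 and Tcf21 mark the visceral cells and Tbx15 and Shox2 the subcutaneous ones.

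Reads on genes averaged 22.1 M (mega-reads) ± 13.5 in VWAT SD (SD, n = 4), 31.3 M ± 5.97 in VWAT HFD (n = 5), 26.6 M ± 9.32 in SWAT SD (n = 4) and 31.5 M ± 12.8 in SWAT HFD (n = 5). Levels are counts-per-million (CPM) of these reads after TMM scaling, and libraries are listed in the order of their numbers. The sort was visible in the RNA for Cd34, which averaged 1758 to 2112 CPM in the 4 groups, and for Ptprc, which encodes CD45, at 0.654 to 1.64 CPM. Pecam1, which encodes CD31, averaged 20.7 to 35.4 CPM, so its RNA was not absent. The depot labels were checked with summed marker levels on unscaled CPM. Visceral identity genes summed to 171.5 to 378 CPM in the VWAT libraries used and to 17.3 to 44.4 CPM in the SWAT libraries used. In the library labelled VWAT SD 5 they summed to 28.6 CPM, and in that labelled SWAT SD 5 to 221.7 CPM. Wt1 was at 0.165 CPM in the former and at 83.8 CPM in the latter, while Tbx15 was at 51.1 and 0.374 CPM.

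Across 14360 genes tested, the diet response of the depots differed for 1 gene, Frzb, at an edgeR adjusted p under 0.05 (0.00696% of genes tested). The same test called 5247 genes for diet in VWAT (36.5%) and 92 in SWAT (0.641%). In VWAT 1981 rose (13.8%) and 3266 fell (22.7%), and in SWAT 51 rose (0.355%) and 41 fell (0.286%). For the mean of both depots' diet effects 7551 genes were called (52.6%), 3515 higher (24.5%) and 4036 lower (28.1%). Without adjustment, 438 genes had an interaction p under 0.05 (3.05%), 255 of them with the higher change in VWAT and 183 with the higher change in SWAT (1.78% and 1.27%). A threshold of this kind lets through about 5% where nothing differs, so this share stands below that background. Without VWAT SD 1 it was 17.6%, while the genes called for the interaction again came to Frzb alone. The unequal counts of calls in the depots therefore do not by themselves show that most genes responded differently. Of the 5167 genes called in VWAT only, 5080 (98.3%) had the same sign in SWAT, against 12201 (85.0%) of all genes tested. Of the same 5167, 2992 had the same sign and an edgeR unadjusted p under 0.05 in SWAT. No share over all genes was taken for this count, so it has nothing to be read against.

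Frzb, the gene called for the interaction, had log2 changes of opposite sign in the depots, of which the SWAT one missed the threshold. It stood at 11.7, 9.21, 6.57 and 6.45 CPM in the 4 VWAT SD libraries and at 38.3, 21.9, 14.9, 22.2 and 30.1 CPM in the 5 VWAT HFD libraries. In SWAT its level was 1.21, 1.34, 0.524 and 0.457 CPM on SD and 0.398, 0.322, 0.291, 0.289 and 0.125 CPM on HFD. Every VWAT HFD library lay above every VWAT SD library, every SWAT HFD library lay below every SWAT SD library, and the depots did not overlap on either diet. The SWAT values rest on 47, 35, 15 and 6 reads on SD and on 16, 12, 5, 6 and 6 reads on HFD, so counting error is a large part of them. Frzb rose in VWAT by 1.58 ± 0.33 on the log2 scale (SE, edgeR adjusted p = 0.00522). In SWAT the log2 change was -1.69 ± 0.40, and its edgeR adjusted p of 0.0529 missed the threshold. The interaction was 3.27 ± 0.52 (95% interval 2.19 to 4.35, edgeR unadjusted p = 3.05e-06, adjusted p = 0.0439), and the mean of both diet effects was -0.05 ± 0.23.

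The call on Frzb lies near the threshold. It held in 4 of the 18 models that left out 1 library, namely VWAT SD 1, SWAT SD 3, VWAT HFD 3 and SWAT SD 4 in turn, with edgeR adjusted p from 0.0185 to 0.346, while the log2 value stayed between 3.03 and 3.53. With the 2 left-out libraries put back under their labels the log2 value was 5.17 and the edgeR adjusted p 0.942, where 0 genes were called for the interaction and 605 (4.25%) had an unadjusted p under 0.05. With a correction for the GC content of genes the log2 values were 3.30 for the interaction, 1.62 in VWAT and -1.68 in SWAT, and all 3 passed (edgeR adjusted p = 0.03, 0.00521 and 0.0445). DESeq2 called 3 genes for the interaction, Frzb, D17H6S56E-5 and Lama1 (a laminin chain), while limma-voom called 0, with 378 at an unadjusted p under 0.05.

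**Figure D1:**
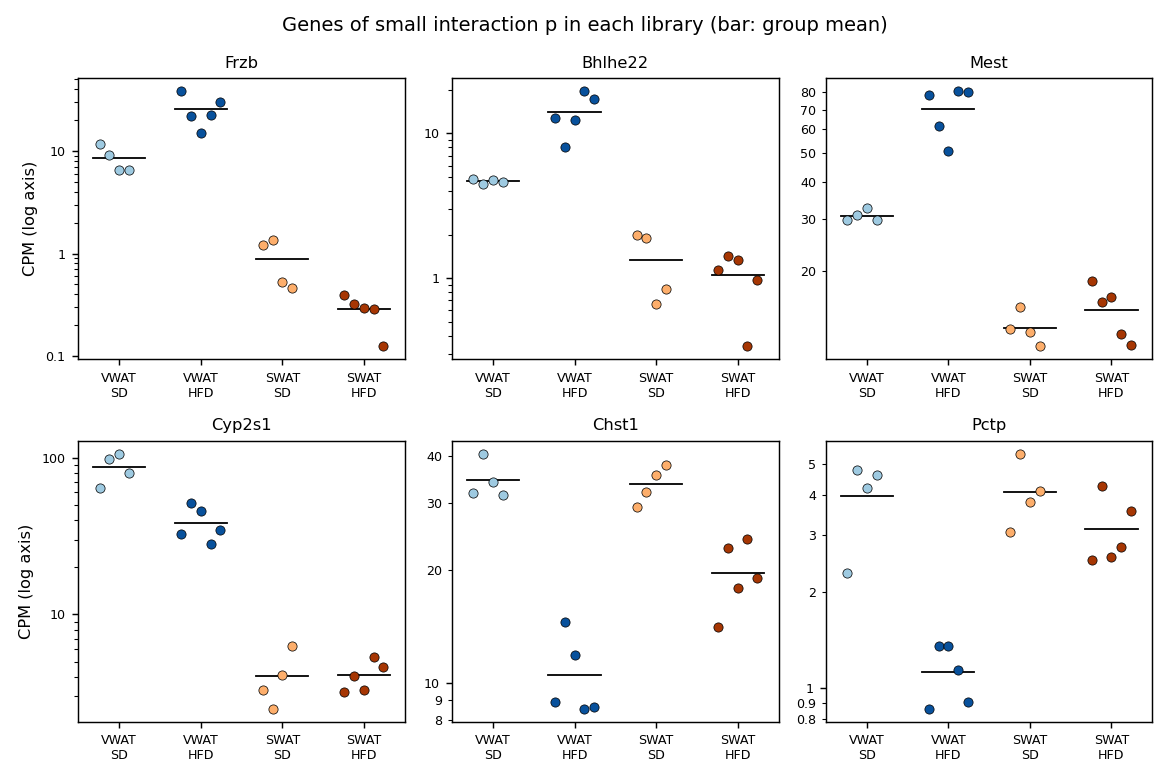
Levels of 6 genes of small interaction p in the 18 libraries, as CPM on log axes, with points from left to right in the order of the library numbers and a bar at the group mean. Frzb is the gene called for the interaction: its points are higher on HFD in VWAT and lower on HFD in SWAT. Bhlhe22 and Mest are higher on HFD in VWAT, and Cyp2s1, Chst1 and Pctp lower.

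Besides Frzb, 9 genes with the higher change in VWAT and 10 with the higher change in SWAT were named by the size of their interaction p. Each of these 19 had an interaction adjusted p of 0.998 with edgeR, so their values describe these libraries and are not called differences between the depots. A first set rose in VWAT, and its change in SWAT did not pass. Mest, an imprinted gene known to rise with fat expansion, stood at 29.6, 30.9, 32.5 and 29.7 CPM in VWAT SD and 78.5, 61.4, 50.6, 80.8 and 80.4 CPM in VWAT HFD, against 12.7, 15.1, 12.5 and 11.1 CPM in SWAT SD and 18.5, 15.8, 16.3, 12.2 and 11.2 CPM in SWAT HFD. Every VWAT HFD library was above every VWAT SD library, while the SWAT groups overlapped. Its log2 change was 1.20 ± 0.19 in VWAT (edgeR adjusted p = 0.00365) and 0.20 ± 0.19 in SWAT (0.444), and the interval of the difference ran 0.43 to 1.56.

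Bhlhe22, a basic helix-loop-helix transcription factor, was at 4.87, 4.44, 4.74 and 4.62 CPM in VWAT SD and at 12.8, 8.08, 12.3, 19.6 and 17.4 CPM in VWAT HFD. The 4 SWAT SD libraries had 1.98, 1.88, 0.664 and 0.838 CPM and the 5 SWAT HFD libraries 1.14, 1.42, 1.34, 0.337 and 0.975 CPM. The VWAT groups were apart and the SWAT groups overlapped. The VWAT log2 change was 1.59 ± 0.36 (edgeR adjusted p = 0.00548) and the interaction 1.97 ± 0.51 (unadjusted p = 0.000917).

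Csf3, the granulocyte colony-stimulating factor, was at 7.83, 6.38, 8.41 and 3.46 CPM in VWAT SD and at 14.4, 18, 15.9, 14.5 and 12.6 CPM in VWAT HFD. In SWAT its range was 9.78 to 26.9 CPM on SD and 12.4 to 20.5 CPM on HFD, which overlap. It rose in VWAT by 1.20 ± 0.28 (edgeR adjusted p = 0.00596), and the SWAT log2 change was -0.30 ± 0.27. Ptn, which encodes the growth factor pleiotrophin, was low in VWAT SD at 0.764, 1.86, 0.229 and 0.475 CPM and stood at 3.79, 1.75, 3.15, 6.28 and 8.33 CPM in VWAT HFD. In SWAT it was higher on both diets, at 9.06, 10.3, 10.1 and 15.4 CPM and 8.4, 9.07, 20.4, 13.3 and 14.3 CPM. The VWAT groups overlapped through VWAT SD 2 and VWAT HFD 2. Its VWAT log2 change was 2.51 ± 0.49 (edgeR adjusted p = 0.00507) and its interaction was 2.29 ± 0.63.

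A further set fell in VWAT and had a smaller value in SWAT that did not pass. Chst1, a sulfotransferase of keratan sulfate, stood at 32, 40.5, 34.2 and 31.6 CPM in VWAT SD and 8.93, 14.6, 11.9, 8.54 and 8.65 CPM in VWAT HFD. In SWAT it stood at 29.3, 32.1, 35.6 and 37.8 CPM on SD and 14, 22.8, 17.9, 24.1 and 19 CPM on HFD. HFD lay below SD without overlap in both depots, and the VWAT HFD libraries were the lowest of all but for an overlap with SWAT HFD 1. The log2 change was -1.72 ± 0.21 in VWAT (edgeR adjusted p = 0.000567) and -0.78 ± 0.20 in SWAT (0.0584).

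Pctp, a phosphatidylcholine transfer protein, was at 2.29, 4.77, 4.2 and 4.62 CPM in VWAT SD and at 0.861, 1.35, 1.35, 1.14 and 0.903 CPM in VWAT HFD. SWAT SD had 3.05, 5.37, 3.81 and 4.12 CPM and SWAT HFD 2.51, 4.27, 2.56, 2.75 and 3.57 CPM, with overlap. Pctp fell by 1.81 on the log2 scale in VWAT (SE 0.29, edgeR adjusted p = 0.00365), against -0.38 ± 0.28 in SWAT. Rfx2, a transcription factor, fell by 0.97 in VWAT (edgeR adjusted p = 0.00507), with a SWAT log2 change of -0.19 ± 0.19.

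Several genes that are abundant in VWAT and scarce in SWAT also had their lower change in VWAT. Cyp2s1, a cytochrome P450 known to oxidise retinoids, was at 63.9, 97.8, 106 and 79.4 CPM in VWAT SD and 32.6, 51.7, 45.9, 28.1 and 34.3 CPM in VWAT HFD, while SWAT held 2.49 to 6.25 CPM on both diets. It fell by 1.17 on the log2 scale in VWAT (edgeR adjusted p = 0.00523). The GC correction took the VWAT change to -0.47, with an edgeR adjusted p of 0.0859. Lrrn2, a leucine-rich repeat membrane protein, fell by 0.94 in VWAT (edgeR adjusted p = 0.0111). Once GC content was corrected for, its VWAT change was -0.09 (edgeR adjusted p = 0.757). The corrected SWAT change of Lrrn2 was 0.76 and passed (0.0475), while uncorrected it was 0.17 (0.656).

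Col6a5, a collagen VI chain, stood at 107, 110.2, 111 and 46 CPM in VWAT SD and 43, 82.6, 72.8, 68 and 47.2 CPM in VWAT HFD, and at 8.96, 6.71, 2.97 and 4.5 CPM in SWAT SD and 6.86, 21, 14.4, 10.7 and 13.2 CPM in SWAT HFD. Neither diet contrast passed for Col6a5, with log2 changes of -0.58 ± 0.33 in VWAT (edgeR adjusted p = 0.164) and 1.18 ± 0.35 in SWAT (0.0664). For other genes with the lower change in VWAT, the interaction was -1.24 ± 0.39 for the heparan sulfate proteoglycan gene Sdc3, -0.82 ± 0.27 for Sp110 and -0.74 ± 0.25 for Exoc3, a subunit of the exocyst. After GC correction the log2 changes of Sdc3 were 0.18 in VWAT and 1.13 in SWAT, of which the SWAT one passed (edgeR adjusted p = 0.697 and 0.0475). D8Ertd82e had an interaction of 1.16 ± 0.31 with the higher change in VWAT.

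The remaining genes with the higher change in VWAT were Cldn4, Fcgbp, Rpl39l and D17H6S56E-5. Cldn4, a tight junction protein of epithelia, was at 0.327, 0.404, 0.0764 and 0.136 CPM in VWAT SD and at 0.468, 2.18, 0.674, 0.806 and 0.291 CPM in VWAT HFD. In SWAT it stood at 41.9, 79.9, 239.7 and 311 CPM on SD and 10.6, 29.3, 79, 45 and 25 CPM on HFD. The SWAT libraries of both diets lay above all VWAT libraries, and SWAT SD and SWAT HFD overlapped. The log2 change was 1.76 ± 0.85 in VWAT (edgeR adjusted p = 0.103) and -2.16 ± 0.56 in SWAT (0.0584).

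Fcgbp, a mucus protein, fell in SWAT by 2.77 on the log2 scale (edgeR adjusted p = 0.0383), from 27.1, 25.7, 117 and 166 CPM on SD to 2.78, 10.8, 22.9, 17.4 and 7.66 CPM on HFD. In VWAT it rests on 2, 0, 0 and 1 reads on SD and on 2, 5, 0, 20 and 8 reads on HFD. The VWAT term of its interaction of 5.25 ± 1.48 is thus read from almost no RNA. Rpl39l, a testis-enriched copy of a ribosomal protein gene, had 1, 0, 0 and 0 reads in VWAT SD and 4, 6, 2, 1 and 8 in VWAT HFD, against 3.33 to 7.93 CPM in SWAT. Its VWAT change of 3.10 ± 0.85 passed (edgeR adjusted p = 0.0112), but a fitted fold from such counts depends on the prior count and bounds nothing. D17H6S56E-5 was at 13.9, 6.06, 2.45 and 4.08 CPM in VWAT SD and 62.7, 61.3, 24.1, 15.6 and 34.9 CPM in VWAT HFD. In SWAT it was at 30.7, 37.9, 118 and 162 CPM on SD and 47.6, 54.9, 81.5, 58.3 and 53.5 CPM on HFD, and its interaction was 3.10 ± 0.71 (edgeR unadjusted p = 0.000277). Like the first set, D17H6S56E-5 rose in VWAT, by 2.55 ± 0.54 (edgeR adjusted p = 0.00522). Its SWAT change of -0.56 ± 0.49 did not pass (0.403).

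Epithelial markers also differed among these libraries. The 18 mammary and skin epithelial markers summed to a median of 919.7 CPM in SWAT SD (range 304 to 1735) and 313.9 CPM in SWAT HFD (131.3 to 528.3). In VWAT the median was 27.1 CPM on SD (8.95 to 34.9) and 13.9 CPM on HFD (7.01 to 15.3). The summed level was thus lower on HFD in each depot, by log2 values of -0.93 in VWAT and -1.38 in SWAT that differed by 0.45 (exact two-sided permutation p = 0.652). In VWAT, 5 of the 18 listed markers averaged at least 1 CPM on SD and 3 on HFD, so most VWAT values lie near the floor. Of the 16 markers tested, 15 had a positive interaction, against 6804 of all 14360 genes. It was positive with an edgeR unadjusted p under 0.05 for 4 of the 16, against 1.78% of all genes. The list's median interaction was 1.75, against -0.03 over all genes. Putting the 2 left-out libraries back took that median to -3.14. Krt18, an epithelial keratin chosen after its values were seen, was at 41, 67.6, 243 and 233 CPM in SWAT SD and 15.2, 31.4, 96.4, 74.5 and 48.2 CPM in SWAT HFD, and at 0.218 to 1.81 CPM in VWAT. The part of epithelial RNA in the SWAT diet changes was not tested. In bulk libraries fewer cells of a type and less RNA per cell cannot be told apart.

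Only Frzb and Tbx1 had every HFD library above every SD library in VWAT and below in SWAT, and 0 genes had the reverse. Both were found by this count after their values were seen. Tbx1, a T-box transcription factor, had 1, 0, 0 and 0 reads in VWAT SD and 2, 3, 1, 1 and 4 in VWAT HFD. In SWAT it was at 2.9, 3.22, 4.12 and 5.87 CPM on SD and 1.24, 2.23, 2.56, 2.55 and 2.35 CPM on HFD, and its interaction had an edgeR unadjusted p of 0.00306. For comparison, 881 genes (6.14% of those tested) had every HFD library above every SD library in VWAT, 950 (6.62%) did so in SWAT and 185 in both depots. Every HFD library was below every SD library for 587 genes in VWAT (4.09%), 879 in SWAT (6.12%) and 126 in both.

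The response shared by the depots consisted of genes called in each of the 2 diet contrasts, which have no library in common. Both contrasts come from a single fit of all 18 libraries with a shared estimate of the spread, so their calls are not independent. This shared response held 45 genes that rose in both (0.313% of genes tested) and 35 that fell in both (0.244%), and 0 called in opposite directions. For the genes that rose the median log2 change was 1.79 in VWAT and 1.74 in SWAT, and for those that fell -1.21 and -1.32. None of the 80 had an interaction p under 0.05, against 3.05% of all genes. They were picked by calls of the same sign in both depots. Neither this count nor the nearness of the medians is therefore an independent test of a shared response. A missing difference is not equality: the 95% interval of the interaction lay within 1 log2 unit of 0 for 12 of the 45 and 15 of the 35, against 33% of all genes tested.

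**Figure D2:**
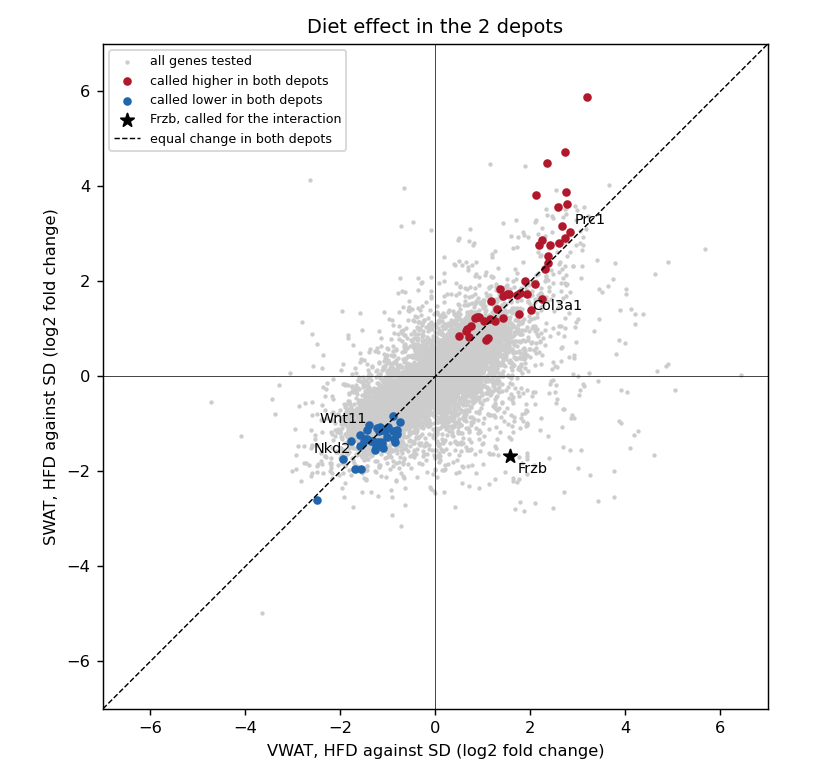
Diet effect in SWAT against diet effect in VWAT for the 14360 genes tested, each axis a log2 fold change of HFD against SD. Red and blue points are the 45 genes that rose and the 35 that fell in both depots, the dashed line marks equal change, and the star is Frzb at 1.58 in VWAT and -1.69 in SWAT.

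Genes of mitosis had the highest median increase among the lists in each depot. All 32 genes of the mitosis and spindle list rose in VWAT, where 13.8% of all genes did. In SWAT 11 of them also rose, against 0.355% of all genes: Ccna2, Ccnb1, Cdk1, Prc1, Tpx2, Ube2c, Anln, Ect2, Racgap1, Melk and Foxm1. The median log2 change of the list was 2.59 in VWAT and 2.82 in SWAT, against 0.06 and -0.02 over all genes. Of the 32, 0 had an interaction p under 0.05, against 3.05% of all genes. Equal change is not shown by this, since interactions in the list ran from -2.13 to 1.73. The 95% interval lay within 1 log2 unit of 0 for 1 of the 32, against 33% of all genes. Ube2c, the conjugating enzyme that passes ubiquitin to substrates of the anaphase-promoting complex, was at 2.75, 1.45, 0.382 and 0.679 CPM in VWAT SD and 16.4, 14.6, 3.6, 4.28 and 7.75 CPM in VWAT HFD. In SWAT it stood at 0.821, 0.959, 0.629 and 0.686 CPM on SD and 9.52, 9.48, 3.67, 2.07 and 4.5 CPM on HFD. Every HFD library was above every SD library in each depot. The log2 change was 2.73 ± 0.57 in VWAT (edgeR adjusted p = 0.00522) and 2.91 ± 0.58 in SWAT (0.0383), with an interaction of -0.18 ± 0.75 (95% interval -1.74 to 1.39).

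Prc1, which bundles the microtubules of the spindle midzone, had 5.67, 2.1, 0.306 and 1.43 CPM in VWAT SD and 31.8, 24.7, 7.64, 8.31 and 16.9 CPM in VWAT HFD. Its SWAT values were 2.08, 1.23, 0.489 and 0.838 CPM on SD and 17.6, 12.6, 6.05, 4.14 and 8.74 CPM on HFD. The groups were apart in both depots, and libraries 1 and 2 were the highest on HFD in each. The log2 change was 2.83 ± 0.62 in VWAT and 3.05 ± 0.64 in SWAT (edgeR adjusted p = 0.00523 and 0.0383). Tpx2, a spindle assembly factor, rose by 2.24 ± 0.50 and 2.87 ± 0.53 (edgeR adjusted p = 0.00548 and 0.0371). Cdk1, the kinase that drives entry into mitosis, rose by 2.41 ± 0.62 and 2.77 ± 0.64 (edgeR adjusted p = 0.0086 and 0.0498).

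Mki67, the classical proliferation marker, was at 7.22, 0.889, 2.06 and 0.136 CPM in VWAT SD and 38.1, 18.2, 9.17, 11.6 and 21.2 CPM in VWAT HFD. SWAT levels of Mki67 were 1.82, 2.07, 0.279 and 1.3 CPM on SD and 25.4, 6.84, 7.97, 3.52 and 10.6 CPM on HFD. Its groups did not overlap in either depot. It rose in VWAT by 2.83 ± 0.73 (edgeR adjusted p = 0.00879), and the SWAT change of 2.99 ± 0.75 had an adjusted p of 0.0575 (0.0449 after GC correction). VWAT SD 1 was the highest VWAT SD library for Mki67, Ube2c, Prc1 and Tpx2. Without it the list's median interaction was 0.81 in place of -0.20, and 31 of its genes rose in SWAT, where 10.8% of all genes did.

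Promoters of the shared mitosis genes are shown because these genes moved together in both depots. Each sequence is the 100 bases before a RefSeq start in GRCm38.p6, written along the gene's strand, 5′ to 3′, with capitals for CCAAT and TTTGAA on either strand. TTTGAA is the core of the cell cycle homology region, and CCAAT boxes are known from promoters of genes expressed late in the cell cycle.
Prc1, chr7:80294376-80294475, + strand: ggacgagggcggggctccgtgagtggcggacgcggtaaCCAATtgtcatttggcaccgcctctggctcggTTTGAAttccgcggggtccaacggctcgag
Ube2c, chr2:164769829-164769928, + strand: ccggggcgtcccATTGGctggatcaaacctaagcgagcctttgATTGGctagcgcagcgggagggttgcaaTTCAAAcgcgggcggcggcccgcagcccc
Cdk1, chr10:69352913-69353012, - strand: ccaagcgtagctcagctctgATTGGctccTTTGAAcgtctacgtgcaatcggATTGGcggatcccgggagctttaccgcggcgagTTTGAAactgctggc
Ccnb1, chr13:100786487-100786586, - strand: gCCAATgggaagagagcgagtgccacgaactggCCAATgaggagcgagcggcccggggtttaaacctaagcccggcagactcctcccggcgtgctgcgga

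RefSeq promoters matched 9 of the 11 shared mitosis genes, with 11 promoters in all. Matches were counted over a longer stretch before the start than the 100 bases shown, so the shares do not refer to the printed sequences alone. In that longer stretch, 9 of the 11 promoters (81.8%) held CCAAT and 5 (45.5%) held TTTGAA. Among 14029 promoters of the genes tested the shares were 34.8% and 10.7%. The 34 shared genes outside the mitosis list had CCAAT in 28.1% and TTTGAA in 28.1% of their 32 promoters, and the 35 genes that fell in both depots in 27.5% and 12.5% of 40. A match describes letters in a window and not a bound site.

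DNA replication genes had smaller medians than mitosis genes. Of 34 in the list, 12 rose and 1 fell in VWAT and 0 passed in SWAT, with medians of 0.84 and 0.49, where 13.8% of all genes rose and 22.7% fell in VWAT. Pole, a replicative DNA polymerase subunit, rose in VWAT by 1.97 ± 0.43 (edgeR adjusted p = 0.00523), with a SWAT change of 0.95 ± 0.41 (0.123). Rrm2, a subunit of ribonucleotide reductase, rose in VWAT by 2.20 ± 0.57 (edgeR adjusted p = 0.00886), and its SWAT change was 1.75 ± 0.56 (0.0788).

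Collagens were the other large group of shared increases. Of 31 collagen genes tested, 15 rose in VWAT and 6 in SWAT, against 13.8% and 0.355% of all genes. All 6 rose in both depots: Col3a1, Col5a2, Col6a3, Col12a1, Col15a1 and Col28a1. The list's median log2 change was 0.71 in VWAT and 0.57 in SWAT. Col3a1, the fibrillar collagen of reticular fibres, was at 13568, 4377, 3888 and 4077 CPM in VWAT SD and 26750.0, 24510.0, 18536, 23949 and 30225 CPM in VWAT HFD. In SWAT it stood at 17777, 13702, 9012 and 9959 CPM on SD and 39436, 35139, 48735, 41542 and 45758 CPM on HFD. All HFD libraries were above all SD libraries of their depot, and VWAT SD 1 stood well above the other 3 VWAT SD libraries. Its log2 change was 1.94 ± 0.32 in VWAT (edgeR adjusted p = 0.00395) and 1.74 ± 0.32 in SWAT (0.0371), and its interaction was 0.20 ± 0.43 (95% interval -0.70 to 1.10). Without VWAT SD 1 the interaction was 0.90, with an edgeR unadjusted p of 0.00589 and an adjusted p of 0.223.

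Col5a2, a collagen V chain that sets fibril width, had 991, 574, 595 and 427 CPM in VWAT SD and 1471, 1956, 1563, 1748 and 1991 CPM in VWAT HFD. SWAT had 1524, 1206, 778 and 1145 CPM on SD and 2554, 2527, 2877, 2741 and 2923 CPM on HFD. The groups were apart in both depots, and the interval of its interaction, -0.43 to 0.84, lay within 1 log2 unit of 0. Col12a1, a fibril-associated collagen, rose by 1.88 ± 0.36 in VWAT (edgeR adjusted p = 0.00507). It also rose in SWAT (edgeR adjusted p = 0.0371), from 16.9 to 44.9 CPM on SD to 99.2 to 163 CPM on HFD. Col28a1 rose by 2.02 ± 0.28 and 1.40 ± 0.28 (edgeR adjusted p = 0.00213 and 0.0383), and Col15a1, a basement membrane collagen of committed preadipocytes, by 1.06 ± 0.16 and 0.76 ± 0.16 (0.00261 and 0.0383).

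Other matrix genes joined them. Adam12, a membrane metalloprotease made by activated mesenchymal cells, was at 92.6, 98.9, 97.4 and 80 CPM in VWAT SD and 339, 349.8, 239.9, 319.7 and 308 CPM in VWAT HFD. Adam12 in SWAT was at 98.9, 69.3, 33.9 and 78.7 CPM on SD and 170.4, 161, 176, 176 and 191 CPM on HFD. The diets did not overlap in either depot, and the log2 change was 1.76 ± 0.23 in VWAT and 1.32 ± 0.22 in SWAT (edgeR adjusted p = 0.0011 and 0.0371). In the matricellular list Postn (periostin) and Tnc (tenascin C) rose in both depots, Postn by 1.36 ± 0.36 and 1.85 ± 0.36 and Tnc by 1.79 ± 0.40 and 1.76 ± 0.39 (edgeR adjusted p = 0.00926, 0.0383, 0.00539 and 0.0479). GC correction took the VWAT change of Postn to 0.45, which did not pass (edgeR adjusted p = 0.142).

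Among enzymes that modify collagen, 5 of 25 were higher and 1 lower in VWAT (all genes 13.8% and 22.7%) and 0 passed in SWAT, with medians of 0.08 and 0.02. After GC correction 13 were higher in VWAT and 4 in SWAT (all genes 6.52% and 1.14%). Plod2, a lysyl hydroxylase, rose in VWAT by 2.16 ± 0.42 (edgeR adjusted p = 0.00507), with 1.62 ± 0.41 in SWAT (0.0575). P4ha3, a prolyl hydroxylase subunit, rose in VWAT by 2.83 ± 0.53 (edgeR adjusted p = 0.00507), with 1.77 ± 0.50 in SWAT (0.0635). Timp1, the inhibitor of matrix metalloproteases, rose in VWAT by 1.48 ± 0.21 (edgeR adjusted p = 0.00213) with a SWAT change of 0.64 ± 0.20 (0.0763), and its interaction of 0.84 ± 0.29 had an unadjusted p of 0.00817 and an adjusted p of 0.998.

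**Figure D3:**
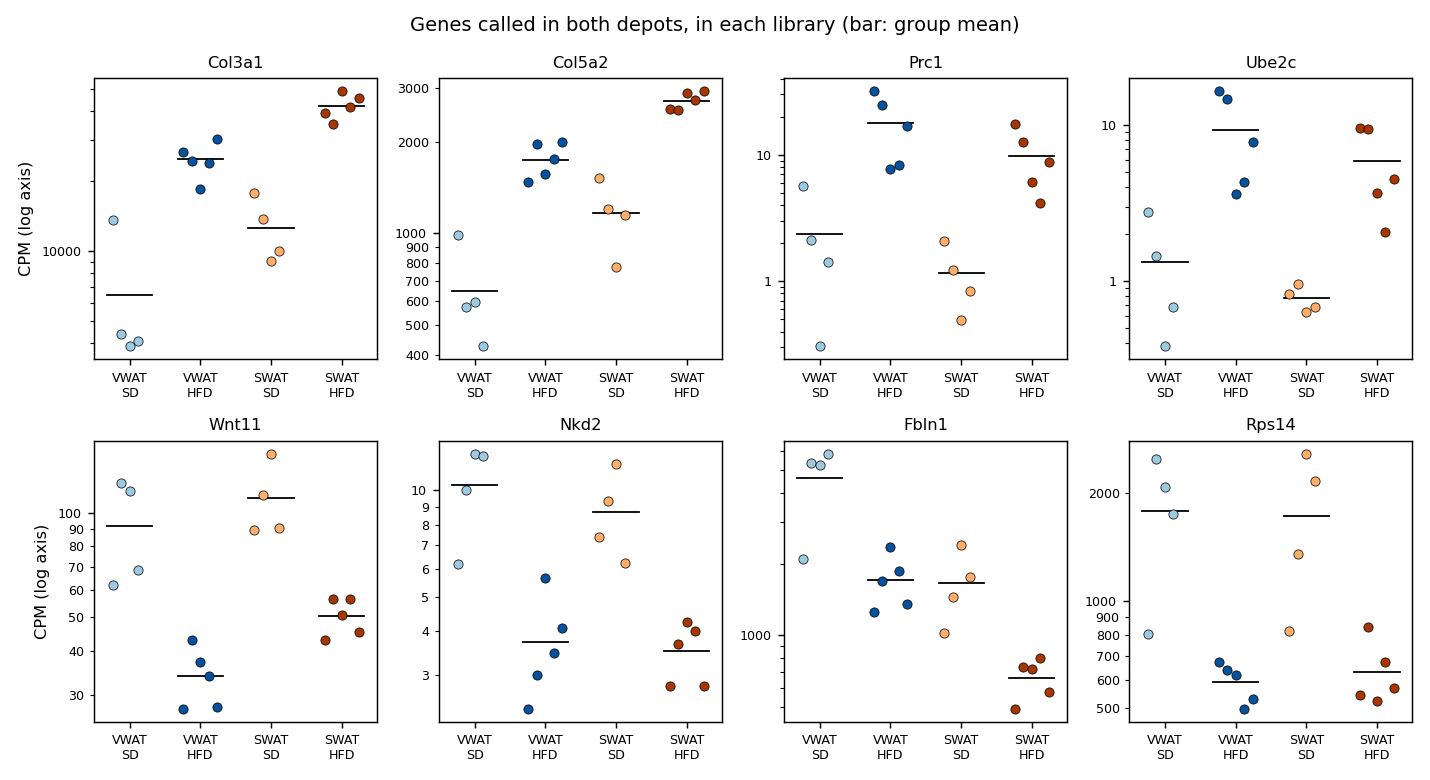
Levels of 8 genes called in both depots, as CPM on log axes, with points from left to right in the order of the library numbers and a bar at the group mean. Col3a1, Col5a2, Prc1 and Ube2c are higher on HFD and Wnt11, Nkd2, Fbln1 and Rps14 lower in each depot. VWAT SD 1, the leftmost point of each panel, lies nearest to the HFD levels among the VWAT SD libraries in all 8 panels.

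Immune-type genes had their clearest shared member in Cxcl9, a chemokine induced by interferon gamma. It stood at 19.3, 11.7, 10.5 and 7.95 CPM in VWAT SD and 36.8, 50.2, 34.1, 45.2 and 39.8 CPM in VWAT HFD. The SWAT values were 13.3, 13.3, 6.85 and 9.15 CPM on SD and 45.3, 36.8, 36.5, 28.4 and 27 CPM on HFD. The diets were apart in each depot, and the log2 changes of 1.73 ± 0.26 and 1.71 ± 0.26 left an interaction of 0.02 ± 0.36 with an interval of -0.73 to 0.77 (edgeR adjusted p of the changes = 0.003 and 0.0313).

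The interferon list, 31 genes tested, had 9 higher and 3 lower in VWAT (all genes 13.8% and 22.7%) and 2 higher in SWAT (0.355%), with medians of 0.60 and 0.67. After GC correction 4 were higher in VWAT and 8 in SWAT (all genes 6.52% and 1.14%). Ddx58, the RNA sensor RIG-I, rose in both depots. Gbp3, a guanylate-binding protein, rose in VWAT by 1.23 ± 0.32 (edgeR adjusted p = 0.00878), with 1.30 ± 0.32 in SWAT (0.0552, or 0.0286 after GC correction). Ifih1, another RNA sensor, rose in VWAT by 1.12 ± 0.36 (edgeR adjusted p = 0.0218), with 1.54 ± 0.36 in SWAT (0.0509). After GC correction the changes of Ifih1 were 0.45 in VWAT, which did not pass, and 1.03 in SWAT, which did (edgeR adjusted p = 0.124 and 0.0173). Of the 31 genes 7 had a positive interaction, against 6804 of all 14360, and 0 passed for it. Unadjusted, 4 of the 31 (Irf7, Oasl1, Oas3 and Dhx58) had a negative interaction with an edgeR p under 0.05, against 1.27% of all genes. Their interactions ran from -0.79 for Irf7 to -1.53 for Oas3.

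Of 30 inflammatory cytokine and NF-kB genes tested, 12 rose and 3 fell in VWAT (all genes 13.8% and 22.7%) and 0 passed in SWAT, with median changes of 0.64 and 0.19. The interaction was positive for 25 of the 30, against 6804 of all 14360 genes, and 0 of the 30 passed for it. The difference between this list and the interferon list was not tested. After GC correction 5 were higher and 1 lower in VWAT (all genes 6.52% and 9.21%). Cxcl10, a chemokine for T cells, was at 120.3, 182, 124 and 98.6 CPM in VWAT SD and 353, 359.9, 326, 400.5 and 321 CPM in VWAT HFD, without overlap. The SWAT levels were 183, 148, 98.6 and 89.6 CPM on SD and 239, 170.1, 214, 174 and 217 CPM on HFD, with overlap. It rose in VWAT by 1.42 ± 0.22 (edgeR adjusted p = 0.00318), the SWAT change was 0.64 ± 0.22 (0.0834), and the interaction of 0.78 ± 0.30 had an unadjusted p of 0.0178 and an adjusted p of 0.998.

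Il6, which encodes interleukin 6, was at 670.4, 208, 302 and 162 CPM in VWAT SD and 925, 616, 628, 1043 and 816 CPM in VWAT HFD, and the groups overlapped through VWAT SD 1. It rose in VWAT by 1.26 ± 0.35 (edgeR adjusted p = 0.0121), with a SWAT change of 0.69 ± 0.35 (0.163). Its VWAT change after GC correction was 0.43 and did not pass (edgeR adjusted p = 0.0973). Vcam1, an adhesion molecule, rose in VWAT by 1.10 ± 0.22 (edgeR adjusted p = 0.00507), with 0.58 ± 0.22 in SWAT (0.0994). The GC correction took the VWAT change of Vcam1 to 0.04, with an edgeR adjusted p of 0.914. Without VWAT SD 1 the list's median interaction was 0.81.

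Among genes that fell in both depots, 3 belong to Wnt signalling. Wnt11, a Wnt ligand known for non-canonical signalling, stood at 61.8, 122, 115 and 68.5 CPM in VWAT SD and 27.3, 43.1, 37.3, 33.9 and 27.6 CPM in VWAT HFD. In SWAT it stood at 89.4, 113, 148 and 90.5 CPM on SD and 43.2, 56.4, 50.9, 56.5 and 45.3 CPM on HFD. HFD was below SD in every library of each depot. Wnt11 fell by 1.44 in VWAT (SE 0.23, edgeR adjusted p = 0.00318) and by 1.12 in SWAT (SE 0.22, adjusted p = 0.0383). After GC correction the SWAT edgeR adjusted p was 0.0534.

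Nkd2 and Nkd1 encode the naked cuticle proteins, targets and feedback inhibitors of Wnt signalling that bind Dishevelled. Nkd2 was at 6.2, 10, 12.7 and 12.5 CPM in VWAT SD, 2.41, 3, 5.67, 3.48 and 4.08 CPM in VWAT HFD, 7.39, 9.32, 11.9 and 6.25 CPM in SWAT SD and 2.81, 3.68, 4.25, 4 and 2.8 CPM in SWAT HFD, with no overlap within a depot. It fell by 1.47 in VWAT and by 1.32 in SWAT (SE 0.28 in each, edgeR adjusted p = 0.00507 and 0.0383). Nkd1 fell by 1.02 and 1.27 (edgeR adjusted p = 0.0142 and 0.0498), and GC correction took its VWAT change to -0.55, which did not pass (0.115). Axin2, another target of the canonical pathway, had log2 changes of -0.97 ± 0.39 in VWAT and -0.67 ± 0.38 in SWAT that did not pass (edgeR adjusted p = 0.0556 and 0.209).

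In all, 4 of 35 Wnt ligands, receptors and targets rose and 7 fell in VWAT, with a median of 0.00, so these counts lie near or below the 13.8% and 22.7% of all genes. In SWAT 3 fell (all genes 0.286%), with a median of -0.29. After GC correction 5 were higher and 2 lower in VWAT and 2 lower in SWAT. Of the 11 secreted Wnt antagonists tested, 2 rose and 1 fell in VWAT and 0 passed in SWAT. The interaction p was under 0.05 for 1 of them, Frzb. Sfrp1, which belongs to the same family as Frzb, rose in VWAT by 0.69 ± 0.23 (edgeR adjusted p = 0.0256), with a SWAT change of the same sign, 0.80 ± 0.23 (0.0636, or 0.0494 after GC correction). Igfbp4, which binds insulin-like growth factors, fell by 0.87 in VWAT (edgeR adjusted p = 0.0173), with -0.84 ± 0.26 in SWAT (0.0743). GC correction left Igfbp4 at -0.21 in VWAT, which did not pass (edgeR adjusted p = 0.37).

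Fbln1, the matrix protein fibulin 1, also fell in both depots. It was at 2103, 5306, 5226 and 5819.6 CPM in VWAT SD and 1259, 1703, 2362, 1877 and 1352 CPM in VWAT HFD. Its SWAT levels were 1027, 1445, 2405 and 1754 CPM on SD and 489.8, 734, 719.6, 802 and 577 CPM on HFD. The SWAT groups were apart, while VWAT SD 1 lay below VWAT HFD 3. The log2 change was -1.43 ± 0.28 in VWAT and -1.32 ± 0.28 in SWAT (edgeR adjusted p = 0.00507 and 0.0383), with an interval of the difference of -0.93 to 0.71.

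Cbx7, a Polycomb subunit that represses the Cdkn2a locus, fell by 1.94 in VWAT and by 1.74 in SWAT (edgeR adjusted p = 0.00507 and 0.0442). The receptor phosphatase gene Ptpru fell by 1.56 and 1.96 (edgeR adjusted p = 0.00523 and 0.0371), Trnp1 by 1.35 and 1.36 (0.00523 and 0.0383), and Use1, a SNARE of the endoplasmic reticulum, by 1.60 and 1.23 (0.00395 and 0.0469). With the GC correction Trnp1 no longer passed in either depot (0.199 and 0.131), while Cbx7, Ptpru and Use1 passed in both.

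Ribosomal protein genes made up 8 of the 35 shared decreases, among them Fau, Rpl8, Rpl18, Rps10, Rps14, Rps16 and Rps27. The list of 81 such genes was chosen after values were seen, and near-identical pseudogenes make their counts uncertain. In VWAT 2 of the 81 rose and 21 fell, the latter close to the 22.7% of all genes that fell there. In SWAT 0 rose and 8 fell (all genes 0.286%), and the medians were -0.20 and -0.69. Rps14, of the small subunit, was at 806, 2495, 2091 and 1754 CPM in VWAT SD and 675, 641, 619.7, 497 and 531 CPM in VWAT HFD. SWAT held 819.9, 1352, 2582 and 2169 CPM on SD and 543, 842, 522, 673 and 568 CPM on HFD. The VWAT groups were apart, with VWAT SD 1 the lowest on SD, and SWAT SD 1 lay just below SWAT HFD 2. Rps14 fell by 1.59 in VWAT and by 1.46 in SWAT (edgeR adjusted p = 0.00507 and 0.0383).

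Adipocyte genes split within both depots. Fabp4, the fatty acid binding protein of adipocytes, stood at 28.9, 12.4, 15.6 and 18.3 CPM in VWAT SD and 25.2, 24.1, 35.7, 34.3 and 39.4 CPM in VWAT HFD. In SWAT it stood at 32.9, 30, 27.9 and 32.4 CPM on SD and 57.6, 65.4, 79.5, 57 and 60.6 CPM on HFD. The SWAT diets were apart and the VWAT diets overlapped through VWAT SD 1. Fabp4 rose by 0.75 ± 0.22 in VWAT and 1.06 ± 0.22 in SWAT (edgeR adjusted p = 0.0165 and 0.0384), but neither passed once GC content was corrected for (0.946 and 0.209). Lpl, lipoprotein lipase, rose in VWAT by 1.27 ± 0.25 (edgeR adjusted p = 0.00507), with 0.98 ± 0.25 in SWAT (0.0582). Corrected for GC content, the VWAT change of Lpl was 0.56 and did not pass (edgeR adjusted p = 0.0774).

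Srebf1, the transcription factor SREBP-1 of lipid synthesis, fell by 1.06 in VWAT and by 1.11 in SWAT (edgeR adjusted p = 0.00611 and 0.0495). After GC correction the VWAT value was -0.18 (edgeR adjusted p = 0.335). Cebpa, an adipogenic factor, fell by 1.58 in VWAT (edgeR adjusted p = 0.00517), with -1.15 ± 0.32 in SWAT (0.062). Corrected for GC content, the VWAT change of Cebpa was -0.49 and did not pass (edgeR adjusted p = 0.0918). Pparg, the central adipogenic factor, was at 5.87, 12.2, 4.81 and 8.35 CPM in VWAT SD, 6.27, 7.42, 11.3, 8.84 and 10 CPM in VWAT HFD, 14.4, 13.3, 12.1 and 9.45 CPM in SWAT SD and 8.03, 11.7, 14, 10.1 and 11.7 CPM in SWAT HFD, and the diets overlapped in both depots. Its changes were 0.17 ± 0.26 and -0.15 ± 0.26 (edgeR adjusted p = 0.607 and 0.684). Over 22 adipogenic factors, 1 rose and 7 fell in VWAT (all genes 13.8% and 22.7%) and 1 fell in SWAT. After GC correction the order in VWAT turned, with 3 higher and 1 lower (all genes 6.52% and 9.21%).

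Among lipid synthesis genes Fasn, fatty acid synthase, fell by 0.70 in VWAT (edgeR adjusted p = 0.0404), and its SWAT change was -0.95 ± 0.26 (0.0606). GC correction turned the VWAT change of Fasn to 0.16, which did not pass (edgeR adjusted p = 0.53). Elovl6, a fatty acid elongase, rose by 1.33 ± 0.33 in VWAT (edgeR adjusted p = 0.00747), with 0.73 ± 0.32 in SWAT (0.13). Cyp51, an enzyme of cholesterol synthesis, rose by 1.37 ± 0.28 in VWAT (edgeR adjusted p = 0.00519), with 0.71 ± 0.27 in SWAT (0.104). Of 21 cholesterol genes, 9 rose and 3 fell in VWAT (all genes 13.8% and 22.7%) and 0 passed in SWAT, while after GC correction 8 were higher and 0 lower in VWAT. The interaction was positive for 18 of the 21, against 6804 of all 14360 genes, and 0 of them passed for it.

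Estrogen receptor alpha, Esr1, was at 105, 35.5, 48.6 and 70.2 CPM in VWAT SD and 106, 95.4, 108, 137 and 156 CPM in VWAT HFD, and at 67.5, 71.7, 28.8 and 40.9 CPM in SWAT SD and 99.5, 80.1, 86.5, 87.4 and 90.9 CPM in SWAT HFD. It rose in VWAT by 0.89 ± 0.28 (edgeR adjusted p = 0.0225), with 0.77 ± 0.28 in SWAT (0.0971). After GC correction its VWAT edgeR adjusted p was 0.0986. Its target genes Pgr, the progesterone receptor, and Greb1 passed in neither depot (edgeR adjusted p for Pgr 0.153 and 0.137, Greb1 0.0936 and 0.162), but both passed for the mean effect, at 1.35 ± 0.48 and 1.24 ± 0.42 (0.0232 and 0.0194). In each depot library HFD 1 was the highest and HFD 3 the lowest of the HFD libraries for both genes, at 57.7 and 4.54 CPM for Pgr in SWAT. Over 27 estrogen response genes, 3 rose and 9 fell in VWAT (all genes 13.8% and 22.7%) and 0 passed in SWAT. After GC correction 1 was higher and 1 lower in VWAT.

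Precursor state markers also differed in how far they moved. Genes of the DPP4-positive interstitial progenitors, the less committed precursors, had 8 of 17 lower and 0 higher in VWAT (all genes 22.7% and 13.8%) and 0 called in SWAT. After GC correction 4 were lower in VWAT (all genes 9.21%). The interaction was positive for 1 of the 17, against 6804 of all 14360 genes, and 0 passed for it. Dact2, a Dishevelled-binding Wnt modulator, was at 56.7, 85.8, 76.9 and 99.8 CPM in VWAT SD and 11, 28.7, 30.1, 13.7 and 9.84 CPM in VWAT HFD. SWAT held 67, 92.6, 143 and 69.7 CPM on SD and 32.5, 69.5, 46.4, 65 and 50.9 CPM on HFD, where the diets overlap. Dact2 fell by 2.10 in VWAT (edgeR adjusted p = 0.00347), against -0.82 ± 0.33 in SWAT (0.11), with an interaction of -1.28 ± 0.47 (unadjusted p = 0.0121, adjusted p = 0.998). Pi16, a secreted marker of these cells, fell by 1.48 in VWAT (edgeR adjusted p = 0.00507), with -0.79 ± 0.27 in SWAT (0.0852). Dpp4 itself had changes of 0.36 ± 0.35 and 0.76 ± 0.35 that did not pass (edgeR adjusted p = 0.411 and 0.142).

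In the committed preadipocyte list 6 of 15 rose and 3 fell in VWAT (all genes 13.8% and 22.7%) and 3 rose in SWAT (0.355%), while after GC correction 4 were higher in VWAT and 1 in SWAT. Without VWAT SD 1, 6 of the 17 DPP4 list genes rose and 7 fell in VWAT, against 30.3% and 27.1% of all genes, and the list's median interaction was -0.03 in place of -0.29.

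**Figure D4:**
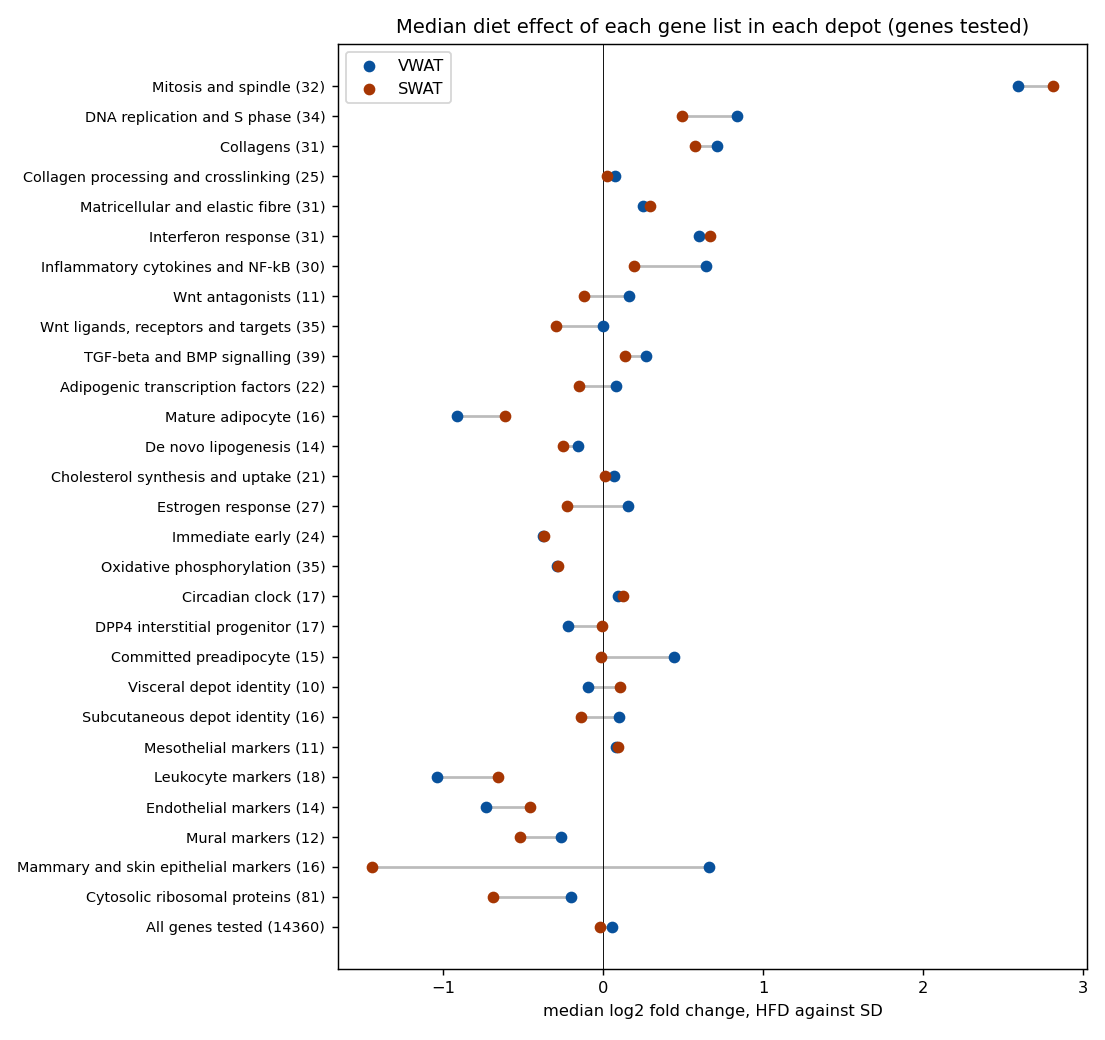
Median log2 fold change of HFD against SD in VWAT and SWAT for each gene list, with the number of genes tested in brackets and all genes tested as the last line. The mitosis list lies farthest to the right in both depots, at 2.59 and 2.82. The epithelial list has its medians farthest apart, at 0.66 in VWAT and -1.45 in SWAT. In VWAT only 5 of the 18 listed epithelial markers averaged at least 1 CPM on SD and 3 on HFD. The summed level of the list was lower on HFD in both depots, by log2 values of -0.93 in VWAT and -1.38 in SWAT.

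Genes called in SWAT and not in VWAT numbered 12, and 8 of these had an interaction p under 0.05. They were found by their calls, so the interaction p of these genes is no independent test. Cd36, the fatty acid translocase, rose in SWAT by 1.54 ± 0.32 (edgeR adjusted p = 0.0383), and its VWAT change of 0.77 ± 0.31 had an adjusted p of 0.0547. Corrected for GC content, the SWAT change of Cd36 was 0.83 and did not pass (edgeR adjusted p = 0.121). Besides Cd36, those higher in SWAT were Ahi1, Ifit3, Kcnv2, Ptger3 (a prostaglandin E2 receptor) and S1pr3 (a sphingosine 1-phosphate receptor). Those lower were Chi3l1, Fcgbp, Fxyd3, Klc3, 2410006H16Rik and Rpsa-ps10.

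The markers of each depot stayed high on both diets. Wt1 was at 82 to 225 CPM in VWAT SD and at 162 to 224 CPM in VWAT HFD, with an edgeR adjusted p of 0.563 for diet. In SWAT Tbx15 was at 38 to 63.8 CPM on SD and at 66.9 to 78.1 CPM on HFD, with an edgeR adjusted p of 0.318. Of the 10 visceral and 16 subcutaneous identity genes tested, 1 visceral gene, Nr2f1, rose in VWAT, by 0.58 ± 0.20 (edgeR adjusted p = 0.0311). Of the genes listed as subcutaneous, Hoxc9, Hoxd9 and Pitx1 fell in VWAT by 1.12, 1.35 and 1.84 (edgeR adjusted p = 0.00573, 0.00585 and 0.00499), and 0 identity genes passed in SWAT. The 3 that fell are close to the all-gene share of 22.7%, and GC correction left Hoxd9 at -0.38, which did not pass (edgeR adjusted p = 0.104). Hoxd9 and Pitx1 did not mark the subcutaneous depot here: Hoxd9 averaged 21.3 CPM in VWAT SD and 5.59 CPM in SWAT SD, and Pitx1 24.2 and 8.56 CPM.

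Among markers of cells outside the gate, the leukocyte, endothelial and mural lists had lower medians on HFD, except for endothelial markers in SWAT. Leukocyte markers summed to a median of 82.3 CPM in VWAT SD and 33.3 CPM in VWAT HFD, and 101.6 and 54.9 CPM in SWAT. Endothelial markers summed to 444.2 and 297.4 CPM in VWAT and to 366.9 and 380.3 CPM in SWAT, and mural markers to 761.5 and 485.3 CPM and to 694.1 and 488.9 CPM. For the 3 lists the difference between the depots' diet effects had exact permutation p of 0.678, 0.212 and 0.807 (two-sided, 10 values per library compared, adjusted p = 0.913, 0.706 and 0.913). Among the markers Cd14 of monocytes fell by 1.08 in VWAT (edgeR adjusted p = 0.0115), Cldn5 of endothelium by 1.54 (0.0111) and Pdgfrb of mural and stromal cells by 0.87 (0.00784). None of these 3 passed after GC correction, at -0.73, -0.55 and -0.25 (edgeR adjusted p = 0.0557, 0.215 and 0.221). Their part in the responses described was not tested.

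Diet moved with base composition in both depots. Each library's GC trend, the Spearman correlation across genes of GC content with the deviation from the mean of all libraries, was 0.54 to 0.62 in VWAT SD 2 to 4, -0.51 in VWAT SD 1, and -0.62 to -0.15 in VWAT HFD. In SWAT it was -0.09 to 0.62 on SD and -0.52 to 0.13 on HFD. The HFD minus SD difference was -0.74 in VWAT and -0.65 in SWAT, with exact two-sided permutation p of 0.0317 and 0.0238 (adjusted 0.102 and 0.0794 over the 10 values). Between the depots these differed by -0.09, with an exact permutation p of 0.847. Reads on no feature averaged 7.14% ± 2.93 (SD, n = 4) in VWAT SD and 4.11% ± 0.381 (n = 5) in VWAT HFD, and 5.97% ± 2.55 and 3.75% ± 0.534 in SWAT (exact permutation p = 0.0556 and 0.00794, adjusted p = 0.102 and 0.0794). The part of either measure in the diet responses was not tested beyond the alternatives given here. Across genes, GC content correlated with the log2 change at rho = -0.68 in VWAT, -0.67 in SWAT and -0.32 for the interaction, as a description. The shared genes that rose had a median GC content of 47.7% and those that fell of 56.0%, against 50.0% over all genes tested.

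With a smooth GC trend removed from each library, 2258 genes were called in VWAT (15.7%), 242 in SWAT (1.69%) and 3884 for the mean effect (27%, 12.5% higher and 14.5% lower). The interaction still had 1 called gene, Frzb (0.00696%), and 708 (4.93%) at an unadjusted p under 0.05. In both depots 117 genes rose (0.815%) and 45 fell (0.313%), and these include 35 of the 45 and 12 of the 35 shared genes. Of the 16 shared genes named for their small p, Wnt11 and Trnp1 were the 2 that lost a call. Among shared genes named on other grounds, Fabp4, Srebf1, Nkd1 and Postn lost their VWAT call. Some named genes that kept their call moved by more than 1.5 times. In VWAT the corrected log2 changes were -1.06 for Chst1, -0.45 for Rfx2, -0.73 for Wnt11, -0.80 for Fbln1, -0.83 for Rps14, -1.21 for Cbx7, -0.71 for Ptpru, -0.86 for Use1, -1.33 for Dact2, -0.75 for Pitx1, 0.69 for Elovl6 and 1.07 for Cxcl9, all closer to 0, and 1.69 for Col15a1 and 1.33 for Nr2f1, both farther from 0. In SWAT they were -0.51 for Srebf1, -0.93 for Rps14, -0.88 for Fbln1, -0.70 for Use1 and 1.20 for Col15a1. The collagen list then had 23 of 31 genes higher in VWAT and 13 in SWAT, with medians of 1.27 and 0.86, and the mitosis list 26 and 16 of 32 (all genes 6.52% and 1.14%). Ribosomal protein genes had 10 lower in VWAT and 14 in SWAT (all genes 9.21% and 0.55%).

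**Figure D5:**
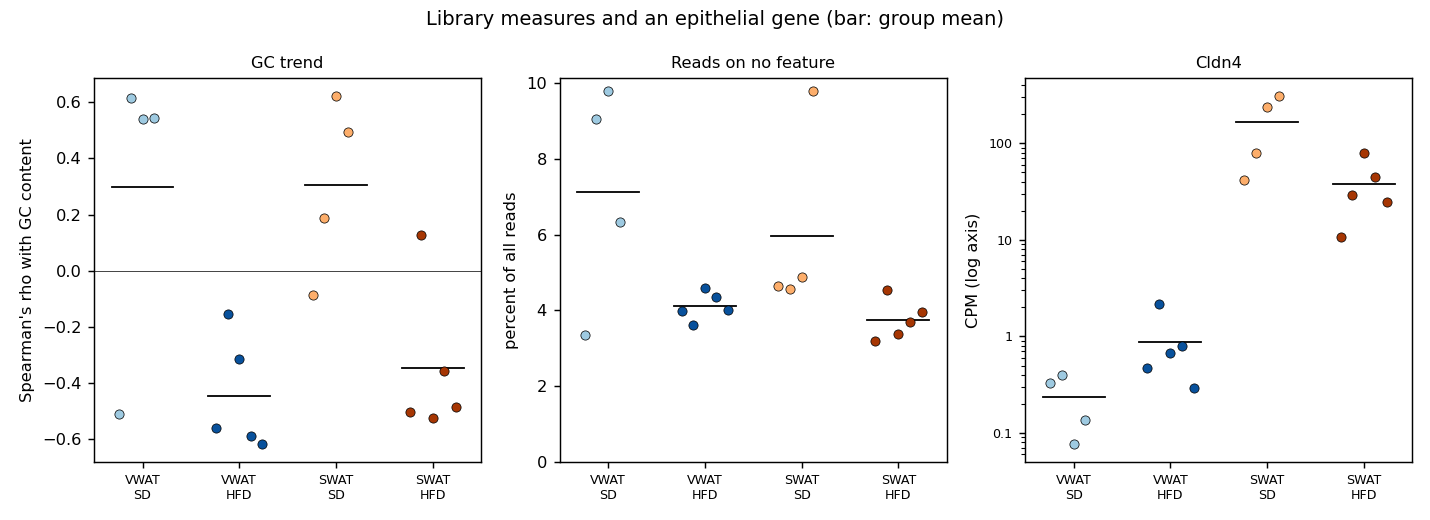
GC trend as Spearman's rho, share of all reads assigned to no feature in percent, and Cldn4 as CPM on a log axis, in the 18 libraries, with points in the order of the library numbers and a bar at the group mean. VWAT SD 1 lies with the HFD libraries for GC trend (-0.51) and unassigned share (3.36%), and Cldn4 is higher in all SWAT libraries than in any VWAT library.

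The SWAT calls depended on single libraries. Leaving out any 1 SWAT HFD library, any of SWAT SD 2 to 4, or VWAT HFD 2 left 0 or 1 gene called for diet in SWAT, and leaving out VWAT HFD 5 left 3 and VWAT SD 3 left 15. Leaving out VWAT HFD 1, VWAT HFD 3, VWAT HFD 4 or VWAT SD 4 left 39, 48, 38 or 61. In VWAT the count was 1866, 2567 and 1995 without VWAT SD 2, 3 and 4, and 3356 without VWAT HFD 5. The SWAT count was 2365 without SWAT SD 1 and 3315 without VWAT SD 1 (22.7%, 11.9% lower). Without VWAT SD 1 the VWAT count was 8394 (57.5%) and the shared counts were 1480 higher (10.1%) and 1536 lower (10.5%), which hold all 45 and all 35 genes of the comparison with 18 libraries. The interaction then had 1 called gene, Frzb (0.00685%, edgeR adjusted p = 0.0185), and 2577 genes at an unadjusted p under 0.05 (17.6% of 14609 tested), with the median interaction of all genes at 0.10. With the unassigned share as a covariate 18 genes were called in VWAT and 0 in SWAT.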

How the data were processed

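RNA of sorted adipocyte precursors was sequenced in 20 libraries, 5 for each depot and diet. The authors deposited 1 table of raw read counts per gene, made with TopHat, HTSeq and mm9 per the submitters' processing notes. For the counting step, the gene annotation is not given in the sources used here, nor is the strand setting, so overlapping, antisense and near-identical genes are uncertain. Of 33929 lines, 5 summary lines (on average 27.0% of reads) and 25 gene names turned into dates (at most 0.132%) were left out, which leaves 33899 genes. Reads on genes ranged from 14.4 to 47.5 M among the 18 libraries used, and counting error is largest for genes with few reads.

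Group means of the 18 libraries were fitted with edgeR 4.0.16 (R 4.3.3, limma 3.58.1) by its quasi-likelihood test, after edgeR's expression filter (14360 genes) and TMM scaling, with Benjamini-Hochberg adjustment over all genes and a threshold of 0.05. The contrasts were diet in VWAT, diet in SWAT, their mean and their difference. Log2 fold changes are given with their SE, and 95% intervals come from the same test. Values per library were compared by exact permutation of diet labels within each depot. For the GC correction, each library's lowess trend (span 0.3) of deviations from the gene's mean log2 CPM (prior count 2) on GC content entered as an offset, and 14152 genes (98.6%) had a GC content. Alternatives were DESeq2 1.42.0, limma-voom, RLE size factors, no filter, the unassigned share of reads as a covariate or a limit, a block for library number, all 20 libraries, and each library left out. The steps were tested on simulated data.

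Members and gene lists were chosen with earlier results of these data known. Genes named are Frzb, the 10 of smallest interaction p in each direction, the 8 shared genes in each direction with the smallest larger p of the 2 diet contrasts, and the 2 genes of each of 27 lists with the smallest p of the mean diet effect. These had to reach 1 in average log2 CPM and to carry no predicted or clone name. Esr1, Pgr, Greb1, Mki67, Pparg, Pdgfra and Pdgfrb were added, and any other gene named was chosen after its values were seen. A few genes that meet the rule are not reported here. Nothing in the labels ties libraries of the same number to each other or to separate animals beyond the pool of 3, so p-values measure the spread between pools. Promoter sequences are from RefSeq on GRCm38.p6.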

Additional observations from a re-analysis of the deposited data

Results flagged for a closer look

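The Frzb interaction of 3.268 on the log2 scale is a difference between the depots' diet effects that passed its own test. Of the 20 libraries, the 2 outside the comparison carry a signal that their labels do not give. In the library labelled VWAT SD 5 the subcutaneous identity genes summed to 298.1 CPM, above the highest of the VWAT libraries used (139.2 CPM). In the library labelled SWAT SD 5 the visceral identity genes summed to 221.7 CPM, above the highest of the SWAT libraries used (44.4 CPM).

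Single libraries stood apart from the rest of their group in 20 of 340 groups of values for 85 named genes, where chance gives about 1 in 20. The measure is the gap to the nearest library divided by the range of the group on the log2 scale, and it was read against Dixon's 95% critical value for the size of the group. VWAT SD 1 accounts for 10 of the 20. It was the highest of its group for Rpl39l (1), Col3a1 (0.9054) and Fstl1 (0.842). It was the lowest for Lrrn2 (0.9488), Rfx2 (0.8579), Fbln1 (0.8942), Igfbp4 (0.8352), Id3 (0.8982), Fasn (0.8459) and Lyz2 (0.8313). VWAT SD 4 was the lowest for Col6a5 (0.95), and SWAT SD 3 for Vcam1 (0.8337) and Elovl6 (0.9902). On HFD, the lowest library was SWAT HFD 5 for Frzb (0.7207), SWAT HFD 4 for Bhlhe22 (0.7359), SWAT HFD 2 for Cyp51 (0.732) and SWAT HFD 1 for Cbx7 (0.8513) and Junb (0.7828). The highest was VWAT HFD 1 for Exoc3 (0.7106) and VWAT HFD 3 for Lyz2 (0.8357). The cause was not tested.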

How the results depend on the processing

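The count for the interaction stayed between 0 and 3, while the counts for single depots and for genes called in both depots moved. After GC correction 35 of the 45 shared increases and 12 of the 35 shared decreases were called in both depots again. Diet direction was followed across settings for the mean effect of 67 named genes, and not for all 80 shared genes. The cause was not tested unless given. Genes called for the interaction numbered 3 with DESeq2 and 0 with RLE size factors, limma-voom, all 20 libraries, all 20 with GC correction, the unassigned share as covariate and libraries under 6% unassigned. In that last setting VWAT SD 1 is the 1 VWAT SD library left, and the other groups supply the spread. VWAT calls were 2258 with GC correction, 2763 with all 20 and GC correction, 18 with the covariate and 1 under 6% unassigned. SWAT calls were 1615 with DESeq2, 57 with RLE, 222 with all 20, 242 with GC correction, 372 under 6% unassigned and 0 with the covariate. Mean effect calls were 3884 with GC correction, 4103 with all 20 and GC correction, 64 with the covariate and 0 under 6% unassigned. Genes called in both depots in the same direction numbered 1242 with DESeq2, 47 with RLE, 162 with GC correction, 193 with all 20, and 0 with the covariate and under 6% unassigned. Leaving out 1 library gave 0 to 1 gene for the interaction, 1866 to 8394 in VWAT, 0 to 3315 in SWAT, 6330 to 9240 for the mean and 0 to 3016 in both depots. GC correction of all 20 libraries was chosen after seeing the data, as was recomputing the mean effect of the other 67 named genes.

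Whether library numbers mark a pairing stayed unsettled. Of 25 same-numbered pairs, 16 deviated together at a correlation over 0.1, and 8 of 18 libraries correlated best with their own number. The mean correlation was 0.143 for same-numbered pairs and -0.038 for the others, and both include pairs across diets. Within a diet, VWAT and SWAT libraries 1 to 5 on HFD correlated at 0.54, 0.43, 0.09, 0.20 and 0.16. Numbers 1 to 4 on SD gave 0.61, -0.24, 0.12 and 0.10. With a replicate block 1 gene was called for the interaction, 1120 in SWAT and 937 in both depots, against 1, 92 and 80 without it. The block with GC correction gave 1, 565 and 407, with 2443 in VWAT and 3524 for the mean.

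Of the 20 genes named for the interaction, 8 changed sign with the left-out libraries put back. With all 20 and GC correction, then with all 20 alone, the values were -3.01 and -2.95 for Cldn4, -0.97 and -0.68 for Ptn, -3.69 and -3.74 for Fcgbp, -3.47 and -3.22 for Rpl39l, 0.28 and 0.31 for Col6a5, 1.38 and 1.12 for Cyp2s1, and 1.23 and 0.93 for Lrrn2, and with GC correction 0.24 for Sdc3. In settings other than leaving out 1 library, the mean diet effect was classed as weaker at least once for 64 of 67 genes. It was classed as stronger for 2. It changed sign for 4 of the 67. Vcam1 had -0.029 with GC correction, -0.085 with all 20 and GC correction and -0.036 with block and GC correction. Krt8 had 0.085 with GC correction, 0.61 under 6% unassigned, 0.076 with block and GC correction and 0.097 with the covariate. Lyz2 had 0.32 under 6% unassigned. Pparg had -0.032 with all 20, -0.013 with block and GC correction, -0.035 with the block, and -0.042 to 0.21 with 1 library left out, below 0 without VWAT HFD 3, VWAT HFD 5 or VWAT SD 3. Depth limits genes of few reads, such as Frzb in SWAT and Rpl39l in VWAT.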

Other observations

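Counts for further gene lists are read against all genes tested, of which 13.8% rose and 22.7% fell in VWAT, or 6.52% and 9.21% after GC correction. Of 35 oxidative phosphorylation genes, 1 rose and 16 fell in VWAT and 0 passed in SWAT, with medians of -0.29 and -0.28, and 7 were lower in VWAT after GC correction. Of 24 immediate early genes, 3 rose and 7 fell in VWAT and 0 passed in SWAT, and 2 were higher and 0 lower in VWAT after GC correction. Of 39 TGF-beta and BMP genes, 6 rose and 7 fell in VWAT, near the shares of all genes, and 0 passed in SWAT. The circadian clock list had 3 of 17 higher and 5 lower in VWAT, counts that GC correction took to 0 and 1, and 0 in SWAT. In the lipogenesis list 4 of 14 rose and 5 fell in VWAT (1 and 3 after GC correction), and in the mature adipocyte list 2 of 16 rose and 6 fell (0 and 3), with 2 higher and 1 lower in SWAT (0 and 0). The matricellular and elastic fibre list, which holds Postn, Tnc and Fbln1, had 10 of 31 higher and 5 lower in VWAT and 2 higher and 1 lower in SWAT, with 8 and 2 in VWAT and 3 and 1 in SWAT after GC correction.

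Among marker lists, 3 of 18 leukocyte, 6 of 14 endothelial and 2 of 12 mural markers fell in VWAT and 0 passed in SWAT, while 22.7% of all genes fell in VWAT. After GC correction the counts in VWAT were 1, 0 and 0. Of 16 epithelial markers 1 rose and 3 fell in VWAT. Mesothelial markers had 1 of 11 lower in VWAT. They summed to a median of 200.9 CPM in VWAT SD and 210.5 CPM in VWAT HFD. In SWAT these medians were 549.2 CPM on SD and 208.1 CPM on HFD, so the list did not mark the visceral depot. The mesothelial sum had a difference between the depots' log2 diet effects of 1.49. Its exact two-sided permutation p was 0.0453, and its adjusted p was 0.453 over 10 values per library.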
